A study of Mus musculus with 24 samples.

Results

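The 10 genes described here belong to the Notch pathway and were measured in whole muscle of mice that carry inducible reprogramming factors (OSKM: Oct-3/4 with Sox2, Klf4 and c-Myc) for expression in myofibers. They are the ligands Jag1, Jag2, Dll1 and Dll4, the receptors Notch1, Notch2 and Notch3, and the target genes Hes1, Hey1 and Heyl, taken by symbol as 10 of the 24537 genes of the count table. All 10 had enough reads to be tested in every comparison.

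The Cre+ mice were Acta1-Cre+/4Fhet and the Cre- mice Acta1-Cre-/4Fhet. Both genotypes carry the Dox-dependent OSKM cassette and an rtTA gene behind a LoxP-STOP-LoxP cassette, and Acta1-Cre removes the stop in myofibers, so the control mice hold the same transgenes without the recombinase. All mice were 2 months old and received 1 mg/ml doxycycline (Dox) in drinking water for 2.5 days, for 5.5 days or for 8.5 days. The extensor digitorum longus (EDL), a fast muscle, and the soleus (SOL), a slow muscle, were sequenced as polyA RNA, with 2 libraries for each of the 12 combinations of muscle, genotype and day. The libraries hold all cells of the muscle, so that fewer cells of a type and less RNA per cell cannot be told apart.

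Notch signaling passes between touching cells. A ligand of the Jagged or Delta-like family on one cell binds a Notch receptor on the next, the receptor is cut, and its intracellular part enters the nucleus and joins RBPJ to switch on genes of the Hes and Hey families. In skeletal muscle the pathway is known for holding satellite cells (SCs), the muscle stem cells, in quiescence, and myofibers are one of the sources of ligand. It is also a vessel pathway: Dll4 is typical of endothelium and Notch3 of the mural cells around it. The comparison of Cre+ with Cre- muscles bears on the question the study put, namely what OSKM induction in the myofiber does to the surroundings of SCs.

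Total counts ran from 36088781 to 54679082 per library, and 3 counts, the limit that a count of 0 allows, corresponded to at most 0.0831 CPM. The summed FPKM (reads per kilobase of exon, scaled to the total count of the library) of Pou5f1, which encodes Oct-3/4, Sox2, Klf4 and Myc checked the labels. In EDL it was between 9.48 and 20.5 in the 6 Cre- libraries and between 74.5 and 260.5 in the 4 Cre+ libraries of 2.5 and 8.5 days. Both ends of the Cre+ range came from 2.5 days, 74.5 in replicate 1 and 260.5 in replicate 2. In SOL the Cre+ libraries of 2.5 and 8.5 days lay between 31.3 and 57.8, against 13.6 to 25.2 in the Cre- libraries. At 5.5 days 1 Cre+ EDL library, replicate 1, with 13.1, and both Cre+ SOL libraries, with 8.43 and 15.4, stood at the level of the Cre- libraries and so went against their labels. The study states that it removed samples without OSKM overexpression as outliers. The 5.5-day values are given apart here.

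Hes1, a transcriptional repressor, was the most abundant member per length of exon, with a median of 13.4 FPKM over the 24 libraries and a range from 5.72 to 26.7. Jag2 followed with a median of 10.9 FPKM (7.84 to 14.5). Notch3 had a median of 5.20, Heyl of 4.16 and Dll4 of 3.93 FPKM, and their ranges of 2.96 to 8.43, 2.20 to 8.76 and 1.96 to 7.10 overlapped widely. Hey1 (3.09), Notch1 (2.61), Dll1 (2.28), Notch2 (2.14) and Jag1 (1.81) made up the lower end, and no neighbours in this order of medians were separated beyond their spread over the libraries. The lowest count of any member in any library was 183 reads, for Hey1, so that none of the values rests on single reads.

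**Figure D1:**
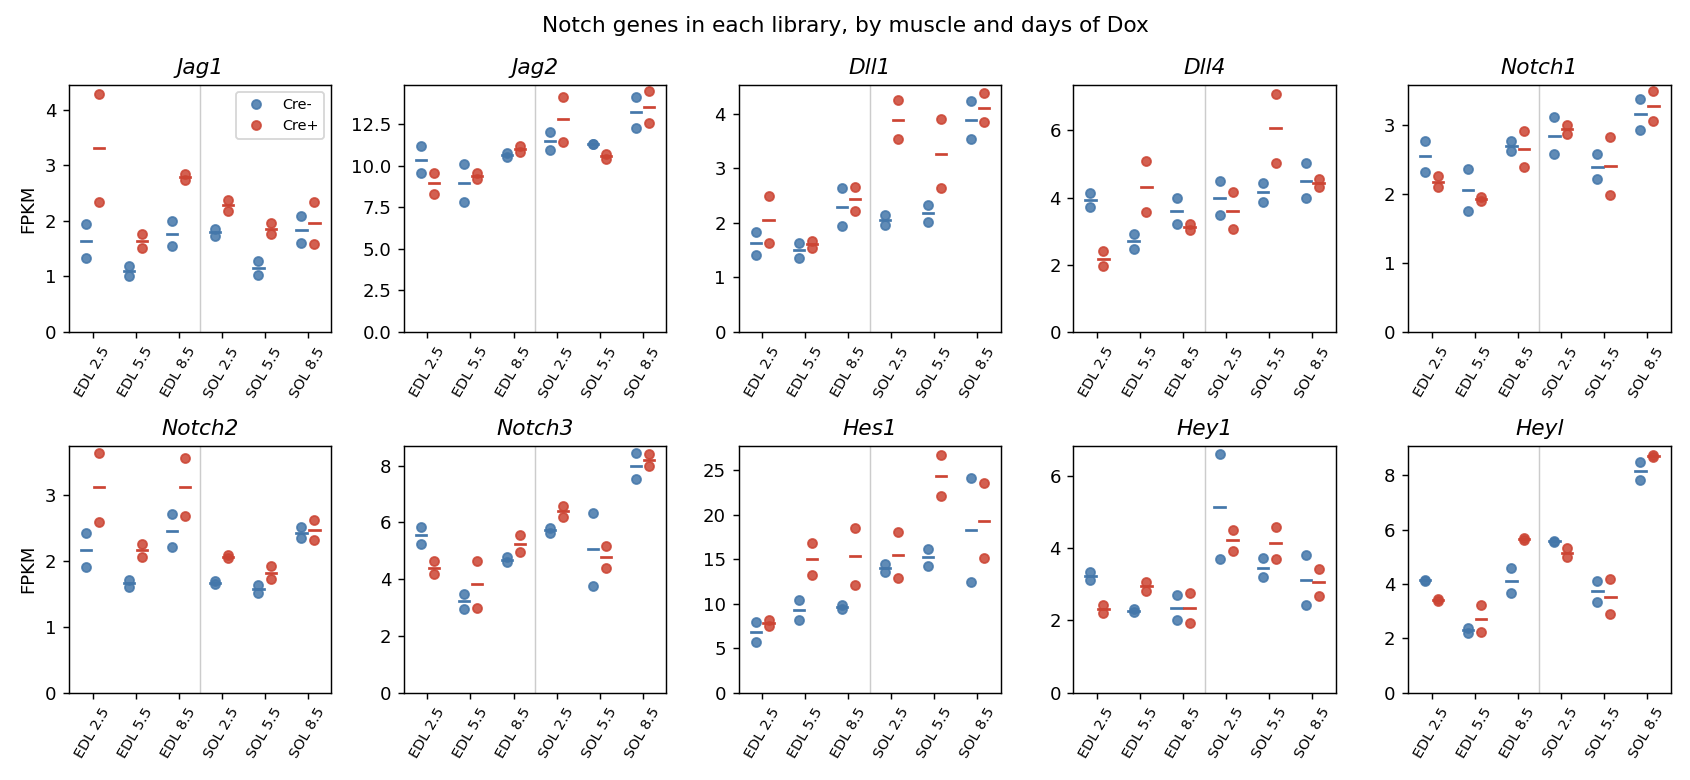
Level of each Notch gene in FPKM (vertical axis, starting at 0) in every library, by muscle and days of Dox (horizontal axis). Dots are libraries, short lines are means of 2 libraries, blue is Cre- and red is Cre+; Dll4 in EDL at 2.5 days shows the widest gap with Cre+ below, and Heyl and Notch3 in SOL are highest at 8.5 days in both genotypes.

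In mm10 coordinates of the count table, the ligand genes lie at chr2:137081451-137116520 (Jag1), chr12:112908590-112929495 (Jag2), chr17:15367354-15375823 (Dll1) and chr2:119325784-119335666 (Dll4). The receptor genes lie at chr2:26457902-26503822 (Notch1), chr3:98013538-98150367 (Notch2) and chr17:32120893-32166852 (Notch3). The targets lie at chr16:30065357-30067796 (Hes1), chr3:8663359-8667038 (Hey1) and chr4:123233556-123249870 (Heyl). Reads were counted over exons, untranslated regions included. The GENCODE annotation of GRCm38 places a gene on the opposite strand over part of Dll1 (A930024N18Rik, 824 bases), Dll4 (Gm14207, 411 bases), Notch1 (0610009E02Rik, 1489 bases, and Gm13568, 415 bases) and Notch3 (Gm17276, 20951 bases). The strand setting of the counting is not given in the sources used here, so reads of these antisense genes inside the exons of a member may be part of its count.

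RefSeq start sites (GRCm38.p6) were at hand for 7 of the 10 genes, Jag1, Jag2, Dll1 (2 sites), Dll4, Notch1, Notch2 and Notch3. The 250 bases before the start are printed for Dll4 (chr2:119325534-119325783, plus strand), Notch1 (chr2:26503823-26504072, minus strand) and Notch3 (chr17:32166891-32167140, minus strand), 3 of the genes that were lower in Cre+ EDL at 2.5 days. They were searched on both strands, and capitals mark the letters CACGCG, a site that Hes proteins can bind, and GGGGCGGGG, a GC box.
Dll4: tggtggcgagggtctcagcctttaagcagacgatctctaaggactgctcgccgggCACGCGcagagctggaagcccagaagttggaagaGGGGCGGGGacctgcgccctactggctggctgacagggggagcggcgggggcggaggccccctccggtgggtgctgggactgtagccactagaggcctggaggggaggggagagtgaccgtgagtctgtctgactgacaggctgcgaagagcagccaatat
Notch1: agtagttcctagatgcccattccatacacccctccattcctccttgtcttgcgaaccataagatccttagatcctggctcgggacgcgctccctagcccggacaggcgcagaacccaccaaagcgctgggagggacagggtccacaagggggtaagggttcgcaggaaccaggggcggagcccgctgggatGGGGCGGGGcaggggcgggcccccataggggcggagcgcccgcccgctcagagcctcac
Notch3: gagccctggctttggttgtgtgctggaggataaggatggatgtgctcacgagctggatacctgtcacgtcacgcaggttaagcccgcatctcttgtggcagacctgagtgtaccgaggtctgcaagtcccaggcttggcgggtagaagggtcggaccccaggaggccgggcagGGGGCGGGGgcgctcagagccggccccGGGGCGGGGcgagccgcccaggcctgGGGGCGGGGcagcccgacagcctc
The Dll4 window holds one CACGCG and one GGGGCGGGG, the Notch1 window one GGGGCGGGG, and the Notch3 window 3 copies of GGGGCGGGG. CACGCG also stood in the windows of Jag1, Notch2 and Dll1 (1 of its 2 sites), none of them called lower, and the window of Jag2, which was called lower, held neither motif. All 250 bases of the Jag2 window, 124 of the Jag1 window and 153 at the other Dll1 site lie in annotated untranslated regions. Among all 32851 promoter windows of this length, 7.62% hold CACGCG and 10.4% hold GGGGCGGGG. The core letters of RBPJ sites, TGGGAA, were in none of the 8 windows of these 7 genes against 21.6% of all windows, as were the longer form GTGGGAA that contains them (5.42% of all) and the E-box CACGTG (6.02% of all). The 3 printed windows had a GC content of 65.6% (Dll4), 66% (Notch1) and 68.8% (Notch3), where the median of all windows was 52.4%.

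In EDL at 2.5 days 5 of the 10 genes fell in Cre+ muscles, namely Dll4, Jag2, Notch1, Notch3 and Heyl, and Dll4 fell the most, to a fold of 0.440. A gene was called at an adjusted p under 0.05 (quasi-likelihood F-test of edgeR, Benjamini-Hochberg over all genes tested) and an absolute log2 fold change above 0.5. By this rule 5 of the 10 genes were called, all lower, where 24% of the 15372 genes tested were called, 13.8% higher and 10.2% lower. The median log2 fold change of the 10 genes was -0.54 and that of all genes -0.05. At an unadjusted p under 0.05 there were 7 of the 10, against 39% of all genes. In FPKM, before TMM scaling, 52.1% of all genes had both Cre+ libraries above both Cre- libraries and 15.4% had both below.

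Among the ligands, Dll4, the Delta-like ligand typical of endothelium, had 3.71 and 4.14 FPKM in the Cre- libraries and 1.96 and 2.40 in the Cre+ libraries. The groups did not overlap, and the log2 fold change was -1.19 ± 0.20 (SE, n = 2 per group; edgeR adjusted p = 0.00107). Jag2, a Jagged ligand, had 11.2 and 9.57 FPKM in Cre- and 9.60 and 8.29 in Cre+ EDL. These FPKM values overlapped, and only after TMM scaling did both Cre+ libraries lie below both Cre- libraries (log2 fold change -0.54 ± 0.15, edgeR adjusted p = 0.0193). Jag1, the other Jagged ligand, moved the opposite way in value, from 1.94 and 1.33 to 2.34 and 4.28 FPKM, without passing the test (log2 fold change 0.68 ± 0.28, edgeR adjusted p = 0.0905). Its Cre+ libraries both lay above the Cre- libraries and differed widely from each other. Dll1, a Delta-like ligand, overlapped between genotypes, with 1.41 and 1.84 FPKM in Cre- and 2.49 and 1.63 in Cre+ libraries (log2 fold change 0.02 ± 0.25).

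Of the receptors, Notch3 had 5.83 and 5.25 FPKM in Cre- and 4.64 and 4.17 in Cre+ libraries, with no overlap (log2 fold change -0.66 ± 0.12, edgeR adjusted p = 0.00153). Notch1 had 2.77 and 2.32 FPKM in Cre- and 2.26 and 2.10 in Cre+ EDL (log2 fold change -0.55 ± 0.14, edgeR adjusted p = 0.0123). For both receptors the 2 Cre+ libraries were the lower ones, for Notch1 by a narrow margin. Notch2, with 2.42 and 1.90 FPKM in Cre- and 2.59 and 3.64 in Cre+ libraries, did not pass the test (log2 fold change 0.19 ± 0.17, edgeR adjusted p = 0.437).

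Of the target genes, Heyl, a Hey family repressor, had 4.10 and 4.15 FPKM in Cre- and 3.46 and 3.39 in Cre+ EDL, with replicates close together (log2 fold change -0.60 ± 0.12, edgeR adjusted p = 0.00272). Hey1, of the same family, had 3.12 and 3.33 FPKM in Cre- and 2.42 and 2.20 in Cre+ libraries, a wider gap with a larger error that missed the threshold (log2 fold change -0.81 ± 0.31, edgeR adjusted p = 0.0709). DESeq2 on the same libraries called it (adjusted p = 0.0476) and thereby 6 of the 10 genes, where it called 24.8% of all genes. It was also called with all 24 libraries fitted and by either tool on the 4 libraries alone (adjusted p from 0.0173 to 0.0491). The other 6 of the 10 alternatives did not call Hey1, and over all 10 its log2 fold change ran from -0.81 to -0.48. Leaving out a library gave values from -0.93 to -0.70. Hes1 overlapped between the genotypes, with 5.72 and 7.92 FPKM in Cre- and 7.52 and 8.12 in Cre+ libraries (log2 fold change -0.14 ± 0.34).

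**Figure D2:**
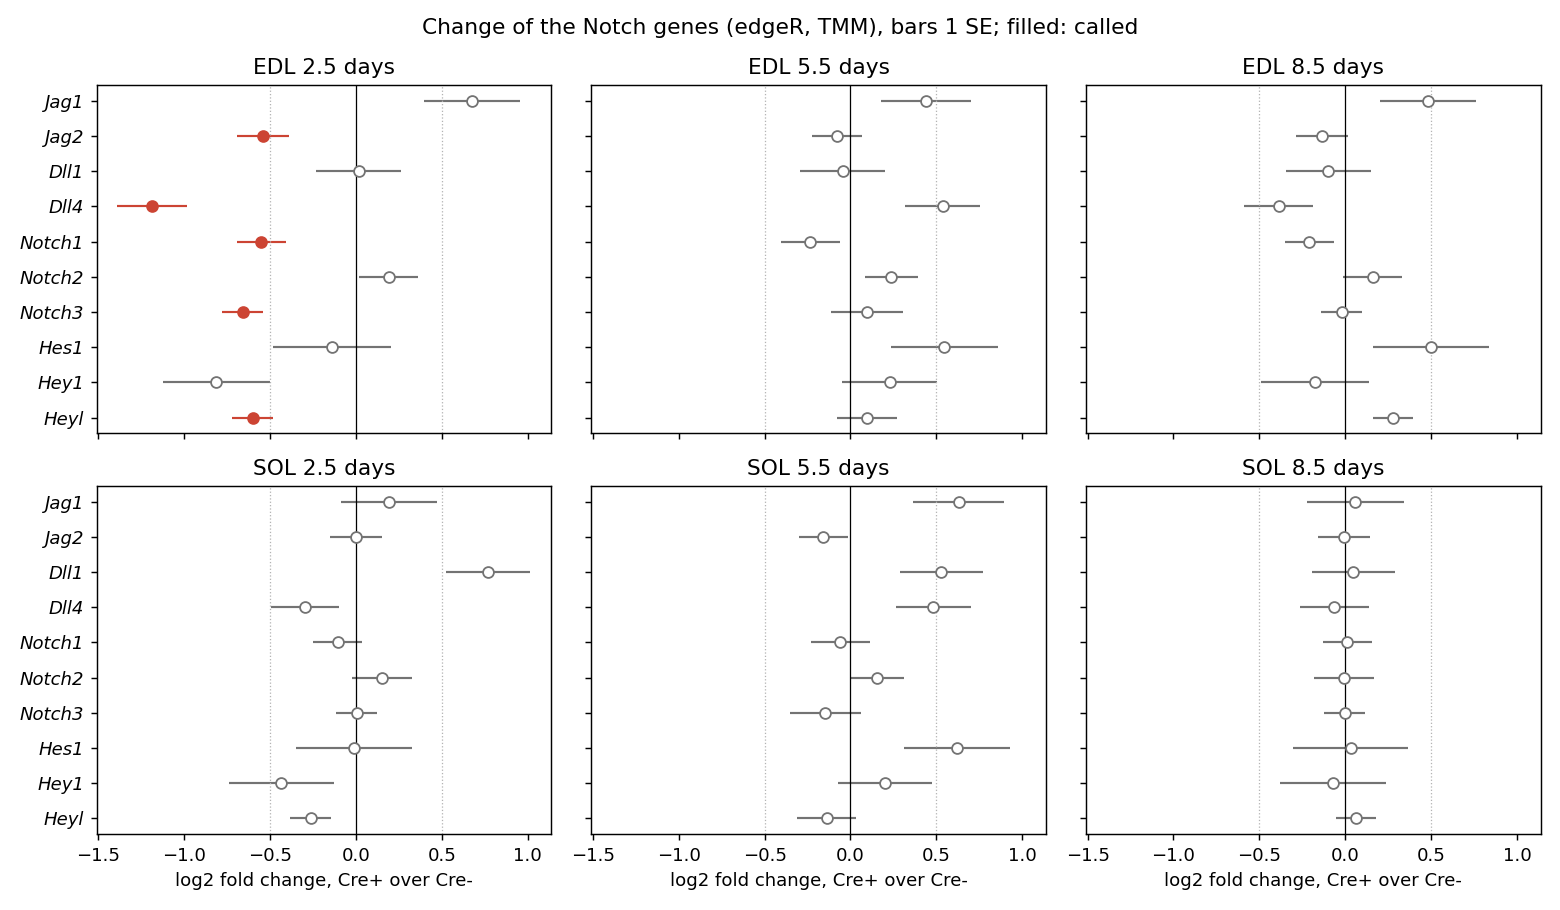
Log2 fold change of Cre+ over Cre- (horizontal axis) for each Notch gene (vertical axis) in EDL and SOL at 2.5, 5.5 and 8.5 days; points are edgeR estimates with TMM scaling from 2 libraries per group, bars are 1 SE, dotted lines mark 0.5 and -0.5. Filled red points were called: Jag2, Dll4, Notch1, Notch3 and Heyl in EDL at 2.5 days, and none elsewhere.

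The choice of scaling bore on these calls. TMM scaling takes the bulk of genes as unmoved, and scaling by the total count alone moved the all-gene median of the log2 fold change in EDL from -0.05 to 0.28 at 2.5 days and from -0.02 to 0.16 at 8.5 days, in SOL at 2.5 days from 0.02 to 0.18 and in EDL at 5.5 days from -0.01 to 0.13. With library size alone 3 of the 10 Notch genes were called in EDL at 2.5 days, where 31.3% of all genes were called, 27.4% higher and 3.97% lower. Dll4 was lower under both scalings, at -0.85 ± 0.20 with library size alone (edgeR adjusted p = 0.00534). Jag1 (1.02, edgeR adjusted p = 0.0136) and Notch2 (0.53, edgeR adjusted p = 0.0469) became called higher. Notch3 at -0.33, Heyl at -0.27, Notch1 at -0.22 and Jag2 at -0.21 stayed below 0 and were no longer called. Of the 5 genes, Dll4 was the only one called with library size alone. On the 4 libraries of this comparison alone Jag2 (adjusted p = 0.0792 with edgeR and 0.0571 with DESeq2) and Notch1 (adjusted p = 0.0704 and 0.0530) were not called either. Leaving out Cre- replicate 1 or Cre+ replicate 2 left 3 genes called, all lower, with Jag2 (adjusted p = 0.129 and 0.180) and Notch1 (adjusted p = 0.107 and 0.111) no longer called, and without Cre+ replicate 1 Jag1 was called higher (1.02, edgeR adjusted p = 0.0188).

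**Figure D3:**
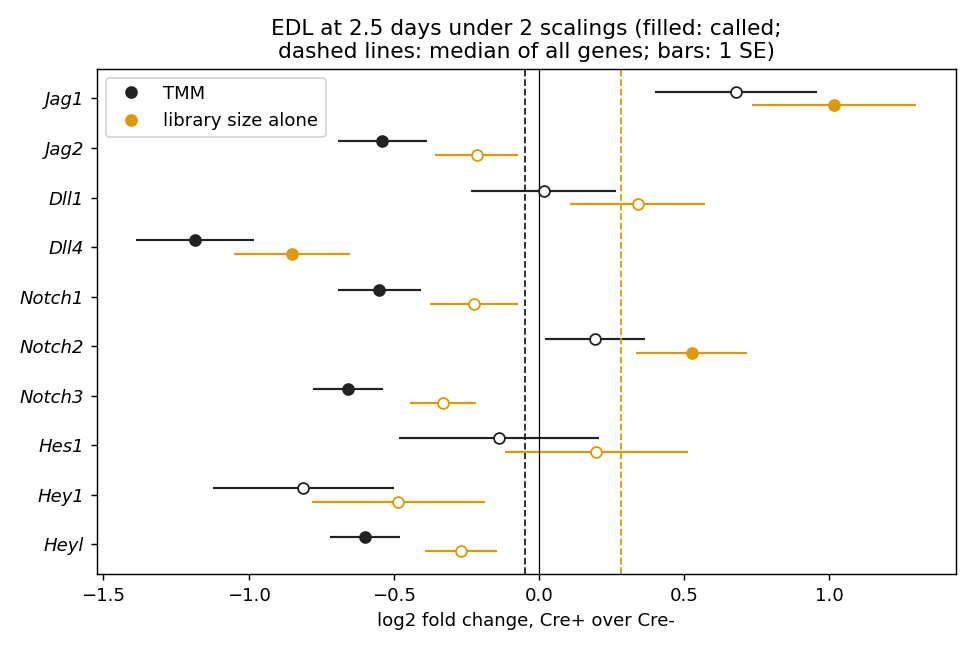
Log2 fold change of Cre+ over Cre- in EDL at 2.5 days (horizontal axis) for each Notch gene under TMM scaling (black) and library size alone (orange); bars are 1 SE, n = 2 libraries per group, filled points were called, and dashed lines mark the median of all 15372 genes. All 10 genes shift together, and Dll4 alone is called lower under both.

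Markers of vessels fell in the same libraries. Of 10 endothelial markers 7 were called lower (Pecam1, Cdh5, Tie1, Emcn, Esam, Egfl7 and Robo4), of 6 arterial markers 3 (Efnb2, Sox17 and Bmx), and of 7 mural cell markers 2 (Pdgfrb and Abcc9), while Cspg4 of that list was called higher. All marker calls in this paragraph are from edgeR with TMM scaling, where 10.2% of all genes were called lower and 13.8% higher. With library size alone 3.97% of all genes were called lower, and the marker calls under that scaling are not given here. The summed endothelial FPKM was 166.8 and 184.3 in Cre- and 144.1 and 137.4 in Cre+ EDL, and the summed mural FPKM 205.1 and 208.4 against 185.8 and 185.5. The summed arterial FPKM was 13.97 and 14.57 in Cre- and 10.81 and 9.56 in Cre+ EDL, also without overlap. Whether Dll4 fell further than the arterial sum was not tested. Dll4 fell further than the endothelial sum. It made up 2.22% and 2.25% of that sum in Cre- and 1.36% and 1.74% in Cre+ libraries, without overlap. Notch1 did not, at 1.66% and 1.26% in Cre- and 1.57% and 1.53% in Cre+ libraries. Jag2 did not either, at 6.71% and 5.19% in Cre- and 6.66% and 6.03% in Cre+ libraries. Its share of the mural sum overlapped too, at 5.45% and 4.59% against 5.16% and 4.47%. Notch3 made up 2.84% and 2.52% of the mural sum in Cre- and 2.50% and 2.25% in Cre+ libraries, and Heyl 2.00% and 1.99% against 1.86% and 1.83%. As shares of the endothelial sum both genes overlapped between the genotypes. Notch3 was at 3.49% and 2.85% in Cre- and 3.22% and 3.03% in Cre+ libraries, and Heyl at 2.46% and 2.25% against 2.40% and 2.46%. These shares depend on no scaling between libraries, and their exact permutation test could not go below p = 0.333 with 2 libraries against 2. Myofiber markers were lower as well (5 of 6, with a summed FPKM of 68149 and 71697 in Cre- and 44709 and 38940 in Cre+ EDL), and of 9 SC markers 1 was called, Spry1, lower. No marker of fibroblasts, macrophages, Schwann cells, tendon or adipocytes was called. The part of vessel or myofiber content in the Notch values was not tested.

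**Figure D4:**
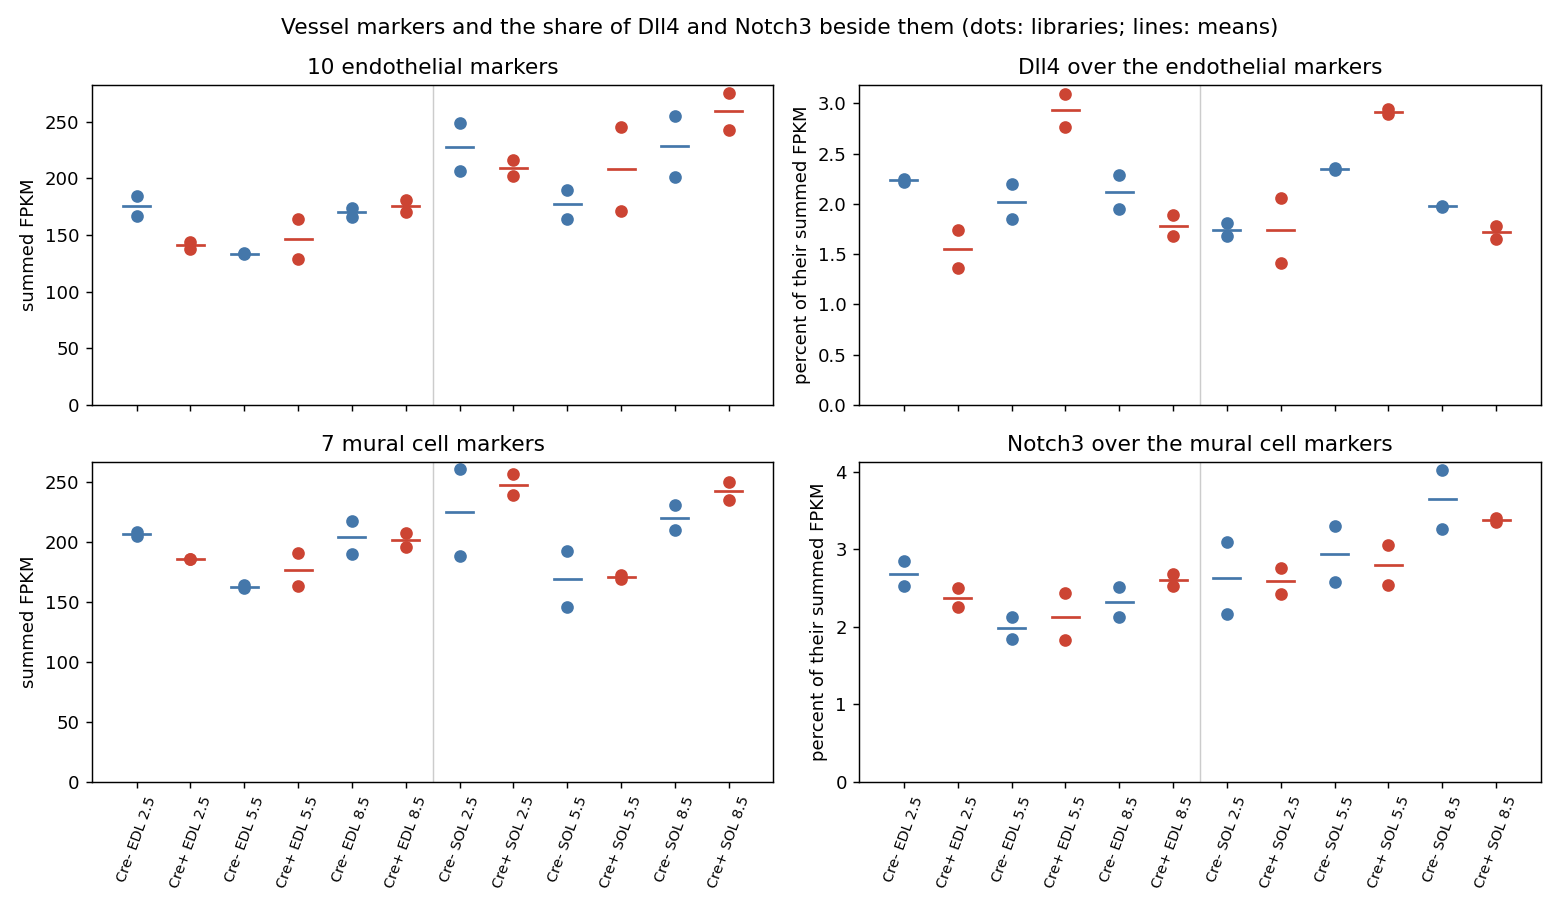
Left, summed FPKM of 10 endothelial and 7 mural cell markers in each library; right, Dll4 as a percent of the endothelial sum and Notch3 as a percent of the mural sum (vertical axes start at 0; horizontal axis, genotype, muscle and days of Dox). Dots are libraries, lines are means of 2, blue is Cre- and red Cre+. In EDL at 2.5 days both Cre+ libraries lie below both Cre- libraries in all 4 panels, for the share of Notch3 by a narrow margin.

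At 8.5 days none of the 10 Notch genes was called in EDL by edgeR or by DESeq2, where edgeR called 14.1% of all genes, 7.63% higher and 6.5% lower. In FPKM 40.3% of all genes had both Cre+ libraries above and 15.5% both below. One of the 10 had an unadjusted p under 0.05 (29.8% of all genes). That was Heyl, with 4.57 and 3.68 FPKM in Cre- and 5.63 and 5.67 in Cre+ libraries, so that at this day both Cre+ libraries were the higher ones (log2 fold change 0.28 ± 0.12, edgeR adjusted p = 0.137). Dll4 had 3.22 and 3.99 FPKM in Cre- and 3.04 and 3.22 in Cre+ libraries (log2 fold change -0.39 ± 0.20, edgeR adjusted p = 0.222). Both Cre+ libraries were again the lower ones, by a margin close to 0. Hes1 (9.91 and 9.37 FPKM in Cre-, 12.2 and 18.5 in Cre+) and Jag1 (1.99 and 1.55 in Cre-, 2.73 and 2.85 in Cre+) were higher in both Cre+ libraries, with log2 fold changes of 0.50 ± 0.34 and 0.48 ± 0.28 that missed the threshold (edgeR adjusted p = 0.360 and 0.277). Notch3 had 4.61 and 4.77 FPKM in Cre- and 5.55 and 4.94 in Cre+ libraries, which TMM scaling brought into overlap. The log2 fold changes of the other members lay between -0.21 for Notch1 and 0.16 for Notch2. No endothelial or arterial marker was called here, 1 of 7 mural cell markers was called higher (Cspg4), and 3 of 6 myofiber markers were called lower. The summed myofiber FPKM was 68292 and 63931 in Cre- and 39182 and 49413 in Cre+ EDL, and its part in the Notch values was not tested. The summed endothelial FPKM was 165.8 and 174.2 in Cre- and 181.1 and 170.5 in Cre+ EDL.

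The change from 2.5 to 8.5 days in EDL was tested as a difference of differences. None of the 10 genes was called by edgeR, which called 0% of all genes in this contrast, and 3 of the 10 had an unadjusted p under 0.05 (9.56% of all genes). Heyl moved by 0.88 ± 0.17 on the log2 scale (edgeR adjusted p = 0.204), Notch3 by 0.64 ± 0.17 (edgeR adjusted p = 0.262) and Dll4 by 0.80 ± 0.28 (edgeR adjusted p = 0.403). Each had the lower value at 2.5 days. DESeq2 on the same libraries called Heyl (adjusted p = 0.00217), 1 of the 145 genes or 0.943% that it called. Over the 8 fits that leave out a library Heyl ran from 0.74 to 1.03 and Notch3 from 0.52 to 0.76. Whether edgeR called these genes depended on the library left out. In SOL none of the 10 was called, with 0% of all genes called, none at an unadjusted p under 0.05 (2.62% of all genes) and none by DESeq2.

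In SOL none of the Notch genes passed the test at 2.5 days by edgeR, where 0.384% of all genes were called (0.345% higher and 0.039% lower), nor by DESeq2 on the same libraries, and 2 had an unadjusted p under 0.05 (13.4% of all genes). In FPKM 43.8% of all genes had both Cre+ libraries above and 10.5% both below. Dll1 stood out by size. It had 1.96 and 2.15 FPKM in Cre- and 4.25 and 3.53 in Cre+ libraries, with a log2 fold change of 0.77 ± 0.25 (edgeR adjusted p = 0.201). DESeq2 on these 4 libraries alone called it (adjusted p = 0.0177), where it called 3.8% of all genes. Heyl had 5.53 and 5.60 FPKM in Cre- and 5.31 and 4.99 in Cre+ libraries (log2 fold change -0.26 ± 0.12, edgeR adjusted p = 0.365). Dll4, at 3.48 and 4.50 FPKM in Cre- and 3.06 and 4.16 in Cre+ SOL, overlapped between the genotypes, and so did Notch1, Jag2, Hes1 and Hey1. Notch3 had 5.81 and 5.64 FPKM in Cre- and 6.59 and 6.20 in Cre+ libraries, which TMM scaling brought into overlap (log2 fold change 0.0063 ± 0.12).

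At 8.5 days in SOL no member was called by edgeR (0.631% of all genes, 0.332% higher and 0.299% lower) or DESeq2 or had an unadjusted p under 0.05 (6.6% of all genes). In FPKM 21.3% of all genes had both Cre+ libraries above and 14.5% both below. The log2 fold changes ran from -0.07 for Hey1 to 0.06 for Heyl, with SEs of 0.12 to 0.34. The Notch3 libraries were at 8.43 and 7.53 FPKM in Cre- and 8.39 and 7.99 in Cre+ SOL, and those of Dll1 at 4.23 and 3.54 against 3.85 and 4.38. The 2.5-day separation of Dll1 was thus absent from the values of 8.5 days, where its Cre- libraries were as high as the Cre+ libraries.

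Whether EDL and SOL responded differently at 2.5 days was tested directly. One of the 10 genes was called, Notch3, whose log2 change in EDL was lower than that in SOL by a difference of -0.66 ± 0.17 (edgeR adjusted p = 0.0462), where 4.25% of all genes were called, 3.36% higher and 0.891% lower in EDL. At an unadjusted p under 0.05 there were 4 of the 10 and 21% of all genes. DESeq2 also called 1 (9.45% of all genes). The edgeR call lay at the threshold. It was lost with library size alone (adjusted p = 0.0890), with DESeq2 size factors (adjusted p = 0.0504), without the filter on low counts (adjusted p = 0.0561) and with all 24 libraries fitted (adjusted p = 0.208), and on leaving out any of the 8 libraries except Cre+ EDL replicate 1. Dll4 differed by -0.89 ± 0.28 (edgeR adjusted p = 0.0954) and Heyl by -0.34 ± 0.17 (edgeR adjusted p = 0.276), so that for these 2 genes a difference between the muscles did not pass. At 8.5 days no member was called by edgeR (0.592% of all genes, 0.533% higher and 0.0585% lower) or by DESeq2, and none had an unadjusted p under 0.05 (11.2% of all genes).

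In Cre- mice, over the mean of 2.5 and 8.5 days, Hes1 and Heyl were lower in EDL than in SOL, 2 of the 10 members where 21.9% of all genes were called and 11.1% lower in EDL. At an unadjusted p under 0.05 there were 5 of the 10 and 41.7% of all genes. Heyl had 4.10, 4.15, 4.57 and 3.68 FPKM in these EDL libraries and 5.53, 5.60, 7.82 and 8.50 in SOL (log2 fold change -0.61 ± 0.08, edgeR adjusted p = 0.000127). All SOL libraries lay above all EDL libraries, and the SOL values of 8.5 days above those of 2.5 days. Hes1 had 5.72, 7.92, 9.91 and 9.37 FPKM in EDL and 14.4, 13.6, 24.2 and 12.5 in SOL (log2 fold change -0.90 ± 0.24, edgeR adjusted p = 0.0129), again without overlap. The call of Hes1 was lost without Cre- EDL replicate 1 of 2.5 days (adjusted p = 0.0610) or Cre- SOL replicate 1 of 8.5 days (adjusted p = 0.0698). Notch3 was lower in EDL by an amount under the fold threshold (log2 fold change -0.32 ± 0.08, edgeR adjusted p = 0.0119). The endothelial sum was 165.8 to 184.3 FPKM in these EDL libraries and 201.6 to 254.9 in SOL, and its part in these differences was not tested.

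The 5.5-day libraries gave no call among the Notch genes in either muscle, by edgeR or by DESeq2, where edgeR called 0.304% of all genes in EDL (0.258% higher and 0.0452% lower) and 0% in SOL. In FPKM both Cre+ libraries lay above in 34.8% of all genes and below in 8% in EDL, and in 26.5% and 10.9% in SOL. At an unadjusted p under 0.05 there were 1 of 10 in EDL (8.44% of all genes) and 3 of 10 in SOL (3.86% of all genes). Dll4 was the member in EDL, with 2.92 and 2.47 FPKM in Cre- and 5.09 and 3.57 in Cre+ libraries (log2 fold change 0.54 ± 0.22, edgeR adjusted p = 0.475). The higher of these Cre+ values came from replicate 1, whose OSKM level was that of the controls. In SOL the 3 were ligands, Dll4 with 3.87 and 4.45 FPKM in Cre- and 5.04 and 7.10 in Cre+ libraries, Jag1 with 1.03 and 1.27 against 1.77 and 1.96, and Dll1 with 2.33 and 2.02 against 2.64 and 3.91. Their log2 fold changes were 0.48 ± 0.22, 0.63 ± 0.26 and 0.53 ± 0.24. Both of these Cre+ libraries had OSKM at control level. Hes1 was also higher in both Cre+ libraries of each muscle, with an unadjusted p above 0.05. In EDL it had 8.19 and 10.4 FPKM in Cre- and 13.2 and 16.8 in Cre+ libraries (log2 fold change 0.55 ± 0.31). In SOL it had 14.3 and 16.2 against 26.7 and 22.1 FPKM (log2 fold change 0.62 ± 0.31).

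The wider pathway was described with a list of 52 further genes, of which 47 were tested. Dll3, Hes2, Hes3, Hes5 and Hes7 had too few reads, with Dll3 and Hes5 at 0 to 2 counts in every library. In EDL at 2.5 days 4 of the list were called higher and 3 lower, 7 of 47 where 24% of all genes were called, with a median log2 fold change of -0.15. With library size alone 11 of 47 were called, all higher, where 31.3% of all genes were called and 27.4% higher.

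The other receptor, Notch4, which is typical of endothelium, had 4.09 and 4.80 FPKM in Cre- and 2.49 and 3.23 in Cre+ EDL (log2 fold change -0.97 ± 0.23, edgeR adjusted p = 0.00808). It was not called with library size alone (-0.64, adjusted p = 0.0706), without Cre+ replicate 1 (adjusted p = 0.0516) or without Cre- replicate 2 (adjusted p = 0.0658). At 8.5 days it was at -0.39 ± 0.23 and not called. Of the ligand group, Dlk2, a Delta-like protein without the domain that binds Notch in the canonical way, rose from 0.402 and 0.216 to 1.24 and 2.60 FPKM (log2 fold change 2.29 ± 0.43, edgeR adjusted p = 0.00186). At 8.5 days Dlk2 was at a log2 fold change of 1.01 and not called (edgeR adjusted p = 0.401). Dner was called higher from 0.0501 and 0.0121 to 0.127 and 0.187 FPKM, at no more than 30 counts in any library, and lost the call without Cre+ replicate 2 or Cre- replicate 2, on the 4 libraries alone with either tool (adjusted p = 0.0824 and 0.145) and with replicate numbers as a block (adjusted p = 0.0791).

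Poglut1, which adds glucose to the receptor, rose from 6.56 and 4.71 to 12.3 and 15.8 FPKM at 2.5 days (log2 fold change 0.99 ± 0.18, edgeR adjusted p = 0.00164). Dtx2, a Deltex ubiquitin ligase, rose from 4.43 and 4.24 to 7.11 and 11.8 FPKM (log2 fold change 0.79 ± 0.21, edgeR adjusted p = 0.0130), and was not called without Cre+ replicate 2, Cre- replicate 1 or Cre- replicate 2, or with edgeR on the 4 libraries alone (adjusted p = 0.0669). Ep300, a histone acetyltransferase that the nuclear complex recruits, was called lower at both days (-0.59 ± 0.18 and -0.58 ± 0.18, edgeR adjusted p = 0.0295 and 0.0476), though its FPKM overlapped, and Neurl1b, a ubiquitin ligase for ligands, was called lower at 2.5 days (-0.57 ± 0.20, edgeR adjusted p = 0.0468). Ep300 at both days and Neurl1b were not called with library size alone, and neither gene was called by either tool on the 4 libraries alone. Neurl1b was also lost with DESeq2 size factors, without the filter on low counts, with replicate numbers as a block (adjusted p from 0.0518 to 0.115) and on leaving out any 1 of the 4 libraries. Ep300 was lost at 2.5 days without Cre- replicate 1 or Cre+ replicate 2, and at 8.5 days without Cre- replicate 1 or either Cre+ library.

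Rbpj, the DNA-binding partner of the cut receptor, did not pass in EDL at 2.5 days, with 2.96 and 4.81 FPKM in Cre- and 2.74 and 4.45 in Cre+ libraries (log2 fold change -0.46 ± 0.31). Hey2 had 0.314 and 0.260 against 0.273 and 0.170 FPKM (log2 fold change -0.69 ± 0.47) and did not pass either. Hes6, which is known to counter Hes1, rose in EDL at 8.5 days from 5.82 and 5.72 to 11.5 and 10.7 FPKM (log2 fold change 0.77 ± 0.17, edgeR adjusted p = 0.00813), and lost the call without Cre+ replicate 1 (adjusted p = 0.0609). At 2.5 days it was called only with library size alone (0.79, edgeR adjusted p = 0.00406). With Ep300 and Hes6, 2 of the 47 genes were called in EDL at 8.5 days, 1 higher and 1 lower, where 14.1% of all genes were called. In SOL none of the list was called by edgeR at 2.5 days (0.384% of all genes) or 8.5 days (0.631%). At an unadjusted p under 0.05 there were 3 of 47 at 2.5 days (13.4% of all genes) and 1 at 8.5 days (6.6%).

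**Figure D5:**
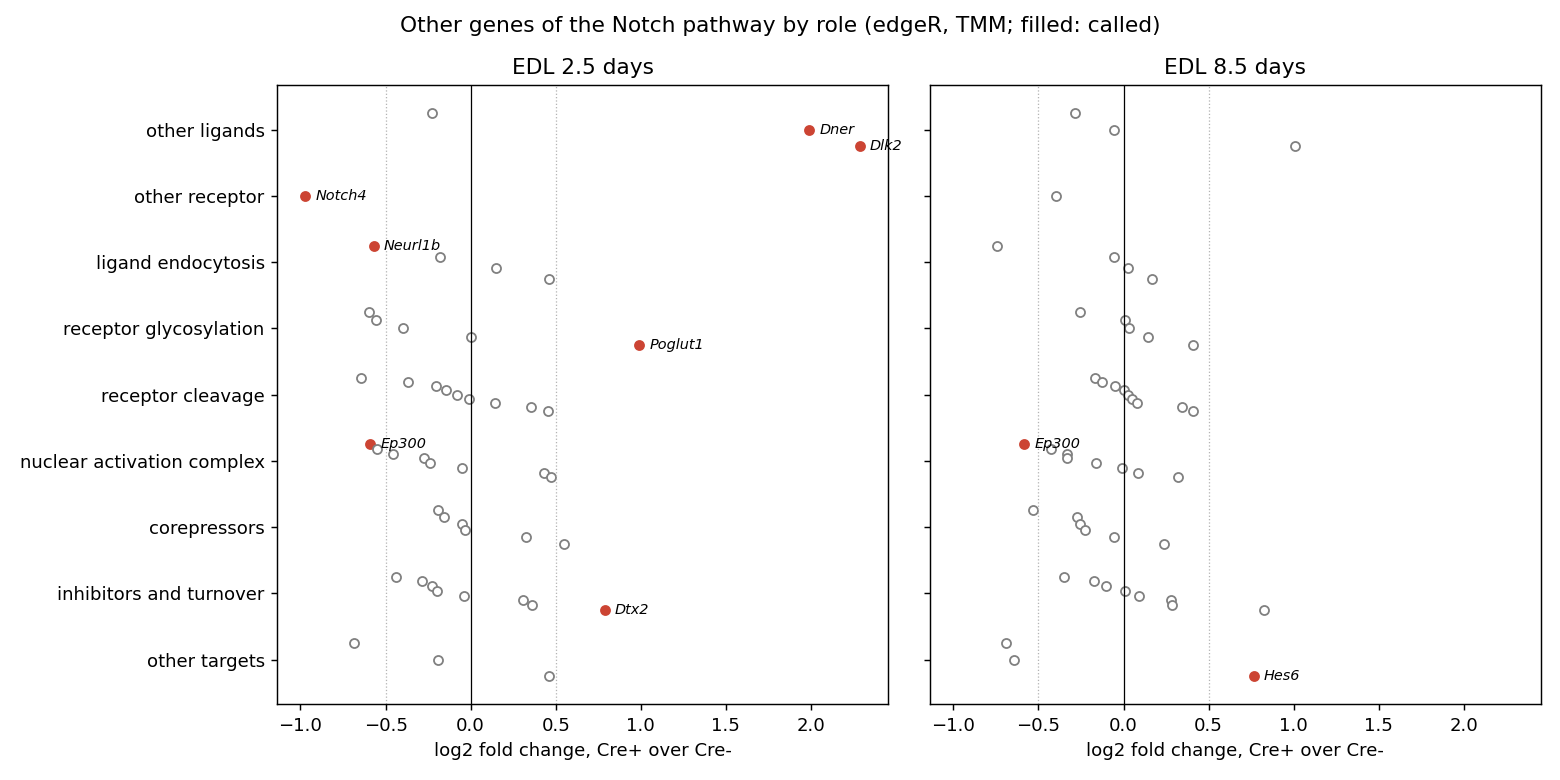
Log2 fold change of Cre+ over Cre- (horizontal axis) of the 47 tested genes of the wider pathway, by role (vertical axis), in EDL at 2.5 and 8.5 days; each circle is a gene (edgeR, TMM, n = 2 libraries per group) and filled red circles were called. Called genes, 7 at 2.5 days and 2 at 8.5 days, lie in both directions, and no gene of the receptor cleavage or corepressor roles was called at either day.

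Across the 24 libraries the members varied together to different degrees. Pearson's r of log2 CPM was 0.90 for Notch3 with Heyl, 0.81 for Jag2 with Notch1 and 0.76 for Notch1 with Notch3, and the lowest was -0.67, for Notch2 with Hey1. Among 11320 other genes with a mean of at least 1 FPKM, the ones most like Notch3 were Ltbp4 and Arhgef40 (r = 0.94 for both) and the ones most like Heyl were Plxdc1 and Unc5b (r = 0.94 and 0.93). For Hey1 they were Bvht and Cd200 (r = 0.91 and 0.90), for Jag2 Zfp362 and Mlxipl (0.88 and 0.87), and for Notch2 Timp2 and Chst12 (0.87 for both). Those most like Dll1 were Grip2 and Lrrc8d (0.87 for both), like Notch1 Helz2 and Kctd10 (0.86 for both), like Dll4 Ets2 and Bcl2l12 (0.85 and 0.84), like Hes1 Egr1 and H3f3b (0.85 and 0.83), and like Jag1 Nt5e and Leprot (0.82 for both). The points share muscles, genotypes, days and libraries, so these values describe the series and are not a test.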

How the data were processed

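Whole EDL and SOL muscle of Cre+ and Cre- mice was sequenced in 24 libraries. The deposited values are raw read counts per gene, which the authors made by aligning reads to mm10 with STAR 2.5.3a and counting uniquely mapped reads over RefSeq exons with HOMER. A read that 2 annotated features share may therefore be lost or counted for either. The 10 members and all gene lists were chosen with earlier results of these data known.

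From the counts, FPKM was computed per library from the total count and the exon length in the table, with no scaling between libraries. Tests used edgeR 4.0.16 in R 4.3.3 (quasi-likelihood test, TMM, filterByExpr with a minimum count of 10, Benjamini-Hochberg over all genes tested), with 16 libraries of 2.5 and 8.5 days in 8 groups (15372 genes) and all 24 libraries for 5.5 days (15478 genes). Fitted groups share one estimate of the spread, since each holds 2 libraries. The study describes these as biologically independent. DESeq2 1.42.0 was an alternative. The scripts were tested on simulated data for Cre+ against Cre- EDL at 2.5 days. There edgeR recovered 56% of 100 genes with a log2 change of 1 in size and 97% of 100 with 2. Smaller changes were not simulated. Named pathway genes were Notch4, Dll3, Rbpj, Hes5 and Hey2, and in each role up to 3 called genes with the lowest adjusted p in EDL. An item of the wider pathway list is not reported here and was left out of its counts.

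No label says that same-numbered EDL and SOL libraries come from one mouse. Their deviations from the group mean correlated in all 6 pairs (0.173 to 0.445), which is a hint from the data that they may. The main tests between the muscles were fitted without such pairing, which was an alternative. The floor of 3 counts covers counting error only, and SEs are those of the fit, with the spread between libraries pooled over the fitted groups. That spread was unequal. The mean chi-square between the 2 libraries of a group was highest in Cre+ EDL at 2.5 days, at 137, against 47.4 in Cre- EDL at 2.5 days. It was 128 in Cre- EDL at 8.5 days and lowest in Cre- EDL at 5.5 days, at 24.0. For a group that varies more than the pool, SEs and p-values may be too small.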

Additional observations from a re-analysis of the deposited data

Results flagged for a closer look

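Notch3 was flagged because its Cre+ change at 2.5 days differed between EDL and SOL, by -0.66 on the log2 scale (edgeR adjusted p = 0.0462), with the limits given above.

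Dlk2 was flagged for the same kind of difference between the muscles at 2.5 days, 2.93 on the log2 scale (edgeR adjusted p = 0.0254). It had 0.374 and 0.240 FPKM in Cre- and 0.227 and 0.208 in Cre+ SOL (log2 fold change -0.64 ± 0.48), against the higher Cre+ values in EDL. The difference was not past the threshold on leaving out any of 6 of the 8 libraries (adjusted p up to 0.124), and the gene had between 1 and 175 counts over the 24 libraries.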

How the results depend on the processing

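The counts of called Notch and wider-list genes and a chosen part of the log2 fold changes were recomputed. This was done under up to 12 alternatives (scaling, filters, DESeq2, fitted libraries, threshold and pairing) and with each library left out in turn. Dll4 in EDL at 2.5 days was called lower in all 10 alternatives that apply to it and in all 4 fits that leave out a library, with adjusted p from 1.54e-06 to 0.0145 and from 0.00534 to 0.0126. The count of 5 Notch genes called there became 3 with library size alone and 3 to 6 on leaving out a library, and Jag2 and Notch1 also lost their calls with edgeR and with DESeq2 on the 4 libraries alone. The count of the wider list in EDL changed from 7 to 11 with library size alone, to 3 with edgeR and 4 with DESeq2 on the 4 libraries alone and to between 3 (without replicate 2 of either genotype) and 8 on leaving out a library at 2.5 days, and from 2 to 1 with either tool on the 4 libraries and to between 0 (without Cre+ replicate 1) and 7 (without Cre- replicate 2) at 8.5 days. DESeq2 on 4 libraries called 1 Notch gene in SOL at 2.5 days in place of 0. The 1 gene called for the EDL and SOL difference at 2.5 days became 0 with library size alone, DESeq2 size factors, no filter or all 24 libraries, and 0 to 2 on leaving out a library. The day difference in EDL changed from 0 to 1 with DESeq2 and to between 0 and 2 on leaving out a library, and the 2 genes called between muscles in Cre- mice to between 1 and 3. The causes were not tested. Of the recomputed log2 fold changes that were not called above, a few changed sign. Some values near 0, such as that of Notch3 in SOL at 2.5 days, were not recomputed. In EDL at 2.5 days Hes1 was 0.20 with library size alone and Dll1 was -0.0093 with the replicate block by number. On leaving out a library Dll1 ran from -0.38 to 0.33, Hes1 from -0.37 to 0.15 and Notch2 from -0.0211 to 0.38 there, Hey1 from -0.52 to 0.11 and Notch2 from -0.00105 to 0.30 in EDL at 8.5 days, Hey1 from -0.77 to 0.011 in SOL at 2.5 days, and Hey1 from -0.40 to 0.36 and Jag1 from -0.29 to 0.34 in SOL at 8.5 days. With replicate numbers as a block across genotypes, which share only a number (correlations of deviations from -0.169 to 0.0578), 5 Notch genes and 5 of the wider list were called in EDL at 2.5 days. With same-numbered EDL and SOL libraries as a block, 1, 0 and 2 Notch genes were called for the muscle differences at 2.5 and 8.5 days and between muscles in Cre- mice, and no call of a member was changed. Fits that leave out a library have an arm with 1 library, which is assumed to vary like the other groups. Library size alone also shifted the calls over all genes from 1173 higher and 999 lower to 1956 and 542 in EDL at 8.5 days, from 40 and 7 to 82 and 4 in EDL at 5.5 days, from 517 and 137 to 921 and 80 for the muscle difference at 2.5 days, and from 1662 and 1702 to 1257 and 2117 between muscles in Cre- mice.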
